A study of Mus musculus with 6 samples.

Results

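The 10 genes described here are markers of adipose progenitor cells, namely Pdgfra, Pdgfrb, Cd34, Ly6a, Dpp4, Pi16, Cd55, Egfr, Fstl1 and Icam1. They were chosen by name, as 10 of the 21851 protein-coding genes in the GENCODE M21 basic annotation, and no threshold on a measured value was used. For each gene, all called peaks with a summit from 50 kb before to 50 kb after the gene were collected, and a promoter peak was one with its summit within 1 kb of an annotated start site of a protein-coding transcript. Peaks of different libraries that overlapped by at least 1 bp were merged into regions, of which 241 lay near the 10 genes out of 194610 genome-wide.

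Adipose progenitors are fibroblast-like cells of the stromal vascular fraction from which adipocytes form. Pdgfra and Pdgfrb mark the stromal and perivascular compartments, Dpp4, Pi16 and Cd55 mark interstitial progenitors, and Icam1 marks progenitors that are closer to becoming fat cells. In ATAC-seq, a transposase inserts adaptors into DNA that is not covered by nucleosomes, so that a peak marks open chromatin at a promoter or a distal element. Open chromatin at a gene is not a measure of its RNA.

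Open chromatin was profiled in 3 kinds of adipocyte culture with 2 libraries each, taken after 7 days of differentiation, from 50000 nuclei per library. All cells came from the stromal vascular fraction of male C57BL/6J mice aged 3 to 4 weeks. Beige and white cultures were grown from inguinal fat. Brown cultures were grown from brown adipose tissue. By the labels, the induction medium of beige and brown cultures held insulin at 5 μg/ml, rosiglitazone at 1 μM, T3 at 1 nM, isobutyl methylxanthine at 0.5 mM and dexamethasone at 5 μM. Later only insulin, T3 and rosiglitazone were kept. White cultures received the same insulin and isobutyl methylxanthine with 1 μM dexamethasone, without T3 and rosiglitazone, and then insulin alone. The study's methods give other insulin doses, which differ between beige and white. Beige against white is therefore a comparison of media in cells of one depot, and in brown against white the depot and the medium cannot be told apart. Brown against beige compares depots in media with the same labelled components, but the brown libraries are not part of the study's methods, so that the depot cannot be told apart from a separate set of libraries. The study calls the beige and white libraries biological replicates, and no source used here says whether the libraries of a culture came from separate animals. Cells that stayed undifferentiated were not removed, as far as the sources used here state. In cultures of mixed cells, fewer cells with an open site and a less open site in each cell cannot be told apart.

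The deposited lists held 109143 to 127490 peaks per library, with a median width of 246 to 267 bp. They hold no reads. Read totals are stated by the study for the beige and white libraries, with more mapped reads in white than in beige, and no totals were found for brown. They were not used here, and the part of depth in the results was not tested. The fold enrichment of a peak over its local background was lower in the white lists and in brown replicate 2 than in the others, with medians from 3.99 to 5.04. Peaks were therefore compared by percentile, which is the percentage of peaks in the same list that had a lower fold enrichment. The -log10 q of a summit is given where its distance from the authors' threshold of 0.05 matters. With 2 libraries against 2, an exact permutation test allows no two-sided p below 0.333, so no test between cultures was made. Cultures were called apart when both values of one lay above both values of the other, and counts of genes or regions apart are read against the share of all genes or regions that were apart in the same comparison.

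Promoter peaks were called at most adipocyte markers in these cultures, some of them at low rank. Of 10 adipocyte genes, 9 had a promoter peak in all 6 libraries, Adipoq, Plin1 and Fabp4 among them, and Lep had one in brown replicate 1 alone. Adipoq had percentiles of 2.53 and 24.8 in beige, 15.6 and 46.7 in white and 62.1 and 58.2 in brown. Those of Plin1 were 22.9 and 21.2, 58.5 and 5.23, and 11.4 and 51.2 in the same order. Fabp4 lay between 43.8 and 81.2. Of 10 macrophage genes, Cd68 and Adgre1 had a promoter peak in all 6 libraries, Lyz2 had one in brown replicate 1, and the other 7, including Ptprc, Spi1 and Csf1r, had none. Among 10 endothelial genes, 5 had promoter peaks throughout, namely Pecam1, Kdr, Tek, Erg and Egfl7. Tie1 and Esam had one in some libraries, and Cdh5, Vwf and Emcn had none. Over all protein-coding genes, 62% had a promoter peak in all 6 libraries and 28.6% had none. Peaks in every library were found for 8 of 10 mural and 2 of 7 mesothelial genes. The part of macrophage, endothelial, mural and mesothelial cells in the results below was not tested.

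Several sequences carry the comparisons that follow, and each is written 5′ to 3′ on the strand of its gene, in mm10 coordinates. Promoters are the 250 bases before the RefSeq start site (GRCm38.p6), in which 8 of the 10 genes matched an entry. The other sequences reach 100 bp to each side of the strongest summit of a region. Capitals mark matches, on either strand, to consensus sequences of ETS factors (CCGGAAG or CAGGAAG), AP-1 (TGANTCA), C/EBP (ATTGCNNAA), NFI (TTGGCA), KLF/SP (GGGCGGGG) and NF-κB (by name). Consensus sequences of TEAD (GGAATG), CRE (TGACGTCA), the glucocorticoid receptor core (ACANNNTGT), the PPARG DR1 and the CArG box were searched as well. Of the 6 genes whose promoter ranks were apart between white and beige cultures, Cd34 and Egfr are shown because each holds 1 ETS match. The promoters of Dpp4, Cd55 and Icam1, which were apart as well, hold none, and Pdgfrb had no entry.

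Cd34 promoter, chr1:194938571-194938820, + strand: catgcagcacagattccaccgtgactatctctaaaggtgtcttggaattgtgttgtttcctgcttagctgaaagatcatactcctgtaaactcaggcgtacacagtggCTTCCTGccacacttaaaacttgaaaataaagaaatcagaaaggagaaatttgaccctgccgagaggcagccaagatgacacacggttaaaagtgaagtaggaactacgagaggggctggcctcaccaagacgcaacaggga

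Egfr promoter, chr11:16751953-16752202, + strand: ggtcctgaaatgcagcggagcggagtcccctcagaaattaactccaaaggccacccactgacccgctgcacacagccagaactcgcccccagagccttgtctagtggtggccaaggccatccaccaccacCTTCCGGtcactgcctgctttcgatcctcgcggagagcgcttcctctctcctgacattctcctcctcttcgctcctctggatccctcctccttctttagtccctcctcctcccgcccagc

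The next sequences belong to the region upstream of Ly6a, the nearest to its start in all 6 libraries, and to the Pdgfra regions that were found in beige and brown or in beige libraries alone.

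Ly6a upstream region, chr15:74998988-74999188, - strand: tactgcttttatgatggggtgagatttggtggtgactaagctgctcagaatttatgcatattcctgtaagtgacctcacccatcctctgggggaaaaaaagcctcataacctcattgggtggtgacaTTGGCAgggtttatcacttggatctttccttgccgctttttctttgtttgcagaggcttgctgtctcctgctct

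Pdgfra coding exon region, chr5:75166513-75166713, + strand: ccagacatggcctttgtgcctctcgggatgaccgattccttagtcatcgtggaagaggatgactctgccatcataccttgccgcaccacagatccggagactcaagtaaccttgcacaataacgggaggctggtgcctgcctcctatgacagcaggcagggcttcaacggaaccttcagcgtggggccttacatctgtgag

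Pdgfra intron region, chr5:75156889-75157089, + strand: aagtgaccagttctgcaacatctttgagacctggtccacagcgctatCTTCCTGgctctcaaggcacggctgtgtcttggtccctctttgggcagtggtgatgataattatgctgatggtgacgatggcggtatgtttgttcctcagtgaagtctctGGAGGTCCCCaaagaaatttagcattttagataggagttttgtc

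The last set holds distal regions whose rank or presence set brown or beige cultures apart, and the Cd34 region with the smallest q value near that gene.

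Cd34 intron region, chr1:194951009-194951209, + strand: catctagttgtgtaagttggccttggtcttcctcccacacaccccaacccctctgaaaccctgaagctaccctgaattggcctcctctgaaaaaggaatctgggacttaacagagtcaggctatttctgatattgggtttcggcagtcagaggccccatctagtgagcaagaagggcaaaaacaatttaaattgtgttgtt

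Cd34 downstream region, chr1:194976256-194976456, + strand: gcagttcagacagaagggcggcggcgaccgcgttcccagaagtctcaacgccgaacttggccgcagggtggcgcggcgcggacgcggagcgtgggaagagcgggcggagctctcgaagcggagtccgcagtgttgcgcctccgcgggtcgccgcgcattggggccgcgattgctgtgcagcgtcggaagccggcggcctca

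Egfr intron region A, chr11:16804114-16804314, + strand: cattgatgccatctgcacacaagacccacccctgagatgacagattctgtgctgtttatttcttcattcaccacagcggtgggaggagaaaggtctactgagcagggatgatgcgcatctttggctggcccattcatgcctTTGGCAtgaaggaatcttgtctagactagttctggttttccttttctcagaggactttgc

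Egfr intron region B, chr11:16866638-16866838, + strand: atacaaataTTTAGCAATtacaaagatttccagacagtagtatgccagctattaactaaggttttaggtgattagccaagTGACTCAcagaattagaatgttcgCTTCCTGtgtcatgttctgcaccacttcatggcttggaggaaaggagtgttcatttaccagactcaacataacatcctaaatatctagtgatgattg

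Fstl1 intron region, chr16:37814751-37814951, + strand: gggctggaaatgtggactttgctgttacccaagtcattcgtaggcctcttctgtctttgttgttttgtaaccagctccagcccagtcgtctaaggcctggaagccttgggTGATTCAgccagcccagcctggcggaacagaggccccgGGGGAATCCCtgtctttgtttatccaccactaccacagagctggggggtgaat

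The share of regions with a match near the progenitor genes was within 5 points of that of all regions for each consensus. Of the 241 regions, 53 held an AP-1 match (22.0%), beside 21.2% of all regions. An ETS match was found in 36 regions (14.9%, against 12.3% of all regions), an NFI match in 46 (19.1%, against 15.5%) and a TEAD match in 44 (18.3%, against 14.1%). KLF/SP matches were found in 6 regions (2.49%, against 3.77%) and C/EBP matches in 11 (4.56%, against 3.82%). The glucocorticoid receptor core was found in 19 (7.88%, against 6.98%), NF-κB in 10 (4.15%, against 3.13%) and the CArG box in 4 (1.66%, against 0.983%). No region held the CRE or the PPARG DR1, which were present in 0.656% and 0.0570% of all regions. In the 300 bp promoters of the 8 genes with a RefSeq entry, ETS matches were found at Cd34 and Egfr, KLF/SP matches at Cd55 and Fstl1, a TEAD match at Dpp4 and a C/EBP match at Pdgfra. The Pdgfra entry lies at the first start site, and the strongest promoter summits of this gene lay 3583 to 4077 bp after that start. Its C/EBP match is therefore outside the promoter peak ranked below. Among all 32851 RefSeq promoters, 20.9% held ETS, 17.6% KLF/SP, 14.7% TEAD and 2.18% C/EBP matches. Promoter GC content had a median of 57.8% in the 8 genes and of 52.7% in all promoters. A match is a description of the letters and no evidence of binding.

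Most of the progenitor genes had an open promoter in the differentiated cultures of each kind. A promoter peak was called in all 6 libraries for 8 of the 10 genes, where 62% of all protein-coding genes had one. Pi16 had one in 5 libraries and lacked it in brown replicate 1, and 9.42% of all genes had one in some libraries only. Ly6a had none in any library, as did 28.6% of all genes. These promoter peaks ranked lower than those of most genes. The mean percentile over the 6 libraries had a median of 68.6 over the 8 genes, beside 88.2 over the 13547 genes with a promoter peak in all 6 libraries. Cd55 stood highest, with a mean of 94.0 that was above 70.3% of these genes, and Egfr followed with 89.4, above 53.3%. Icam1 stood lowest with 37.4, above 3.49%. The remaining members lay between 60.5 for Fstl1 and 77.9 for Dpp4.

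**Figure D1:**
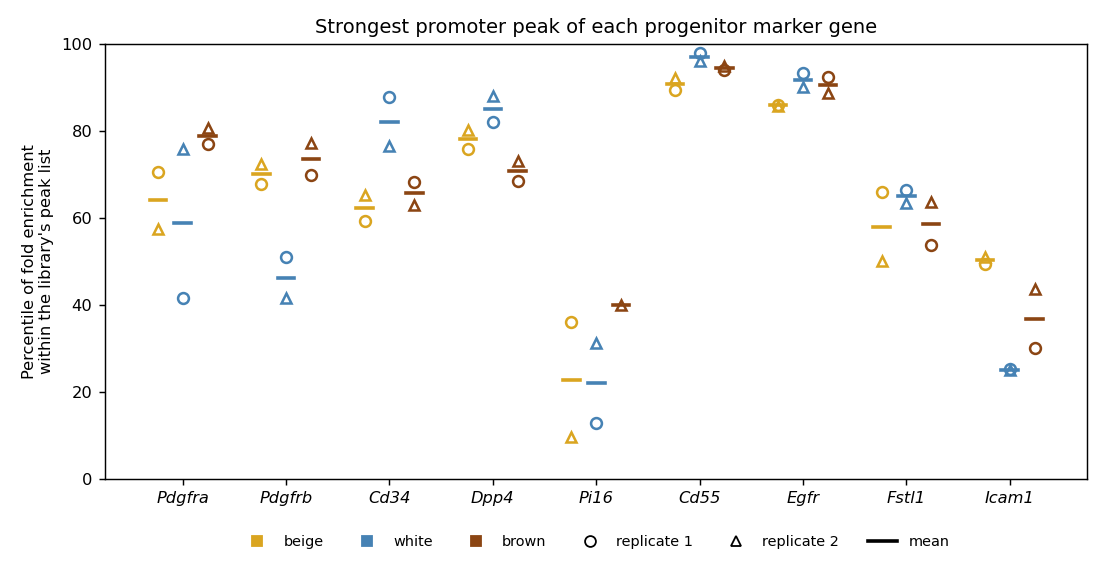
Percentile of fold enrichment (y axis, 0 to 100, within each library's own peak list) of the strongest promoter peak of 9 genes (x axis) in beige, white and brown cultures. Circles and triangles are replicates 1 and 2 and bars are means. Ly6a has no promoter peak and Pi16 has none in brown replicate 1. Both white values lie below both beige values at Pdgfrb and Icam1 and above them at Cd34, Dpp4, Cd55 and Egfr.

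Between beige and white cultures, which share a depot, the promoter ranks of 6 of the 9 genes that could be compared were apart. Beige was above white at Pdgfrb and Icam1, and white was above beige at Cd34, Dpp4, Cd55 and Egfr. Among the 13738 genes compared, 28.5% had both beige above both white values and 19.9% the reverse, so that 2 of 9 is near the background in one direction and 4 of 9 is above it in the other. For scale, replicates of the same culture differed by a median of 2.73 points in beige, 4.70 in white and 2.60 in brown over all promoters. Over all genes compared, the means of beige and white differed by a median of 3.90 points. This median was 3.92 for brown and white and 2.98 for brown and beige. Between brown and white, 3 of 8 genes were higher in brown (34.6% of all genes) and 3 were higher in white (15%). Between brown and beige, 3 of 8 were higher in brown (33.2%) and 2 higher in beige (17.4%). Ranked by -log10 q instead, beige was above white at 2 genes (35.4% of all genes) and white above beige at 4 (17.5%), brown was above white at 1 (28.9%) and white above brown at 5 (23.1%), and brown was above beige at 0 (15.4%) and beige above brown at 2 (34%). Without beige replicate 2, where fewer values have to be apart, the count by fold of genes apart between brown and beige was 8. These comparisons share libraries and are not independent of each other.

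Pdgfra encodes the receptor for PDGF-A and is the most widely used marker of the adipose stroma. The gene (ENSMUSG00000029231.15) lies on chromosome 5 at 75152292-75198215, on the + strand, with 4 annotated start sites in the basic set. The Pdgfra promoter peak reached percentiles of 70.5 and 57.5 in the beige, 41.7 and 75.8 in the white and 76.9 and 80.6 in the brown libraries. The beige and white libraries overlapped, and both brown values were above all others. The white libraries differed by 34.1 points, more than the white replicates of 97.9% of genes. In 5 libraries the strongest promoter summit lay 4053 to 4077 bp after the first start site, which is 446 to 470 bp after the last annotated start, and in white replicate 1 it lay 24 bp before that last start. The first start was accompanied by a peak 968 bp before it, in all libraries except white replicate 2. The -log10 q of the strongest promoter peak was high for its rank by fold, at 97.5 and 75.5 in beige, 22.6 and 53.0 in white and 99.2 and 89.2 in brown. By -log10 q, the cultures overlapped in all 3 comparisons.

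The window of Pdgfra held 29 regions and no other protein-coding gene. Of these, 3 were open in all libraries and 14 in a single library. Upstream of the gene, at -8911 bp, the peaks had percentiles of 88.9 and 91.5 in beige, 75.4 and 78.5 in white and 88.0 and 76.6 in brown. Downstream, at 55820 bp from the first start, percentiles were 95.0 and 94.8 in beige, 91.2 and 86.7 in white and 91.8 and 85.0 in brown. At both elements beige was above white, and brown was below beige. The difference of beige minus white was 13.2 points upstream and 5.93 points downstream.

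Pdgfra also had 3 of the 9 regions that separated cultures by presence. The region in a coding exon at 14321 bp, printed above, had peaks in both beige libraries (percentiles 54.9 and 27.8) and both brown libraries (38.6 and 55.5), and in neither white library. Their -log10 q was 11.5, 6.39, 8.85 and 12.2. No consensus searched was found within 100 bp of its summit. The beige-only region at 4697 bp had a -log10 q of 11.2 and 11.4 but percentiles of only 3.92 and 3.40, and held an ETS and an NF-κB match. A white-only region at -2199 bp was weak, with percentiles of 0.715 and 0.807 and a -log10 q of 3.79 and 3.92.

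Pdgfrb encodes the receptor for PDGF-B and marks pericytes and progenitors along vessels. The gene (ENSMUSG00000024620.11) lies on chromosome 18 at 61045150-61085061, on the + strand. The Pdgfrb promoter peak reached percentiles of 67.8 and 72.4 in the beige, 50.9 and 41.6 in the white and 69.7 and 77.2 in the brown libraries. Both beige and both brown values were above both white values. The means were 70.1 ± 3.25 in beige, 46.3 ± 6.60 in white and 73.5 ± 5.26 in brown (SD, n = 2), which is 23.8 points between beige and white and 27.2 between brown and white. Brown and beige overlapped. By -log10 q, beige and brown were again above white, by 16.6 and 14.8 points.

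Outside the promoter, 7 regions of the Pdgfrb window were open in all libraries. Of these, 2 ranked higher in beige than in white, 3 ranked higher in brown than in white, and none ranked higher in white. Over all regions open in 6 libraries, 25.8% were higher in beige and 22.1% higher in white, and 22.7% were higher in brown than in white and 23.9% the reverse. For beige, 2 of 7 is near the background, and for brown, 3 of 7 is above it. The absence of regions higher in white is below the background in both comparisons. These are small counts among 7 regions. Beige was above white in a distal region at -43708 bp in an intron of Slc6a7, where the peaks had percentiles of 47.9 and 38.0 in beige, 28.7 and 12.6 in white and 44.5 and 52.5 in brown. It was also above white between Pdgfrb and Csf1r, at 46893 bp, where percentiles were 23.2 and 19.1 in beige, 5.18 and 8.51 in white and 32.1 and 16.7 in brown. Csf1r, the receptor of the macrophage growth factor CSF1, lies within the window and had no promoter peak in any library. A pair of regions in its introns was open in all 6 libraries, at 61851 and 82555 bp from the start of Pdgfrb. The second had the smallest q value of the window, and the peaks had percentiles of 85.1 and 79.7 in beige, 88.3 and 81.1 in white and 85.5 and 85.6 in brown.

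**Figure D2:**
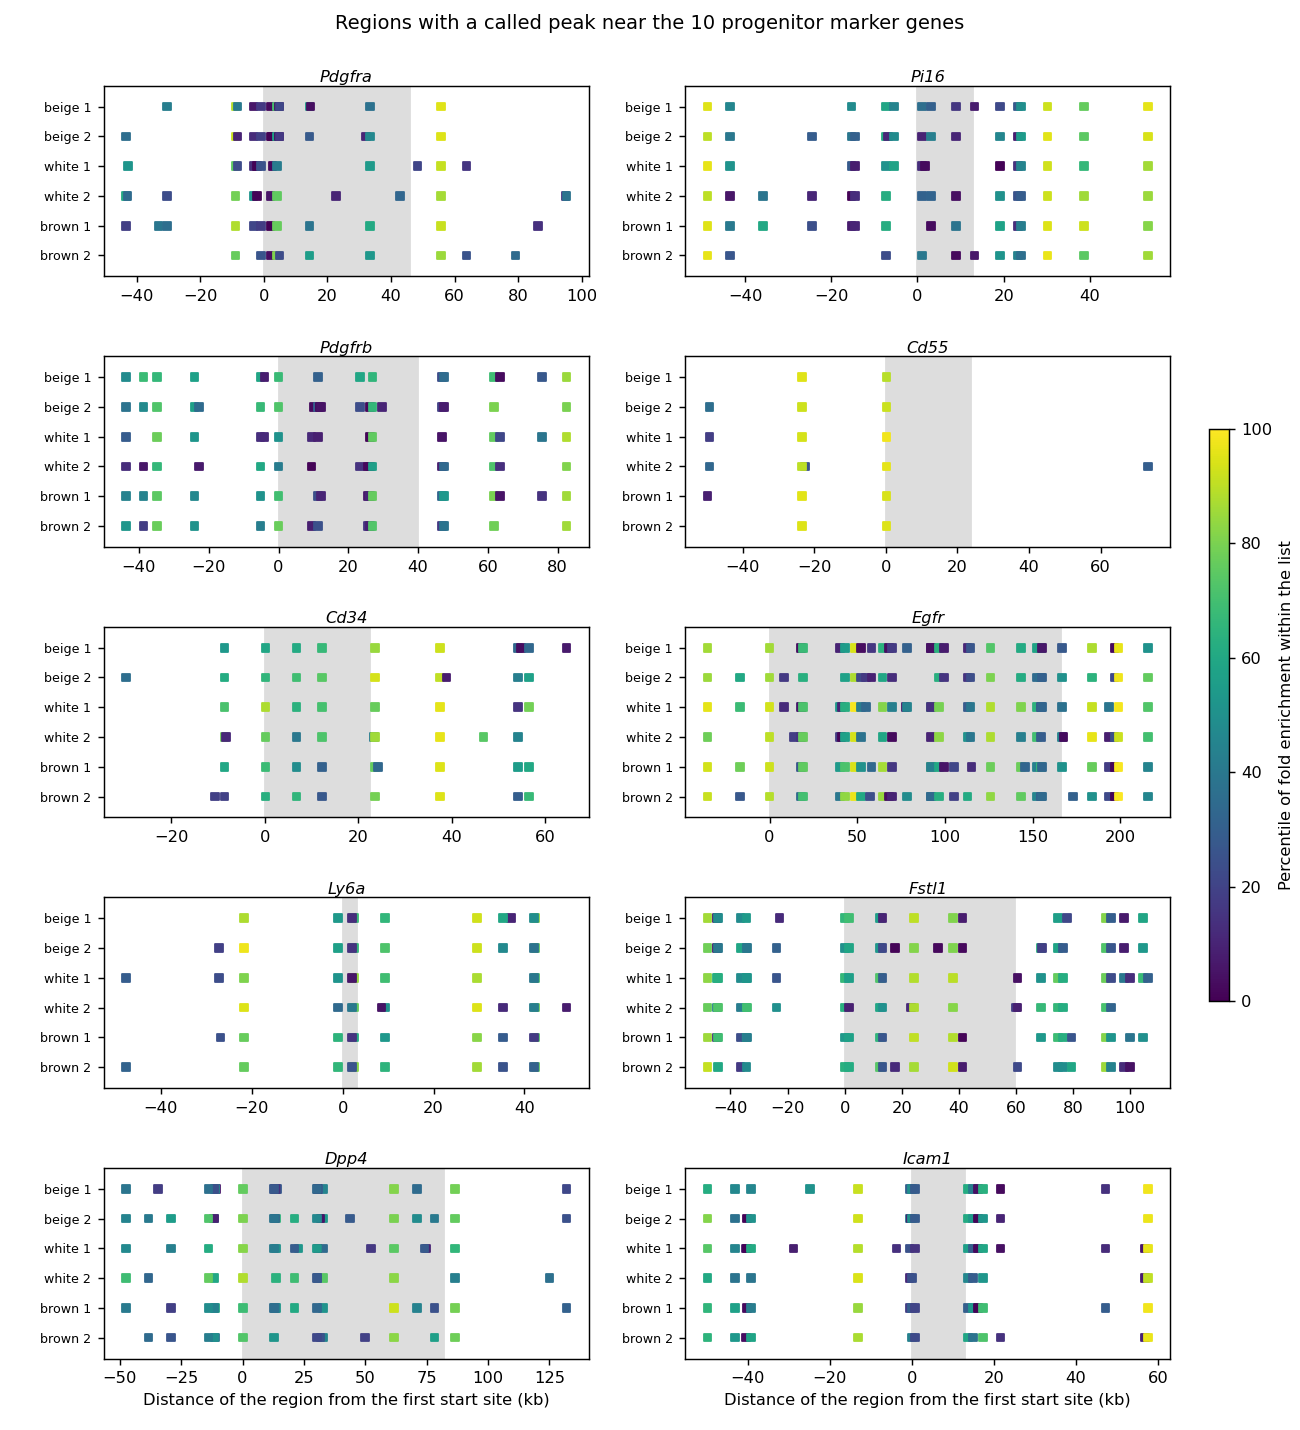
Regions with a called peak near each gene. The x axis is the distance from the first start site in kb, along the direction of transcription, rows are the 6 libraries, the grey band is the gene, and colour is the percentile of fold enrichment. The regions of highest rank are found in all 6 rows, Egfr has the most regions (44) and Cd55 the fewest (6).

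Egfr encodes the receptor of epidermal growth factor and of related ligands. The gene (ENSMUSG00000020122.16) lies on chromosome 11 at 16752203-16918158, on the + strand. The Egfr promoter peak reached percentiles of 86.0 and 85.7 in the beige, 93.3 and 90.1 in the white and 92.4 and 88.8 in the brown libraries. Both white values were above both beige values, with means of 91.7 ± 2.22 and 85.9 ± 0.207 (SD, n = 2). Brown was also above beige, with a mean of 90.6 ± 2.54, and overlapped with white. Ranked by -log10 q, white stayed above beige, but brown minus beige became -0.669 points with overlapping libraries. All summits lay within 26 bp of a start site, and the peaks were 1224 to 1264 bp wide.

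Egfr is the longest of the 10 genes and had the most regions, 44, of which 16 were open in all libraries. White ranked above beige in 7 of these 16 and below it in 1, where 22.1% of all regions were above and 25.8% below. Brown ranked above beige in 8 and below it in 2, where 24% of all regions were above and 27.3% below. The largest difference from beige was found in an intron at 52011 bp (region A), where percentiles were 3.21 and 21.7 in beige, 42.1 and 37.9 in white and 50.1 and 59.9 in brown. Brown minus beige was 42.6 points and beige minus white was -27.5 points. This region and the next 2 were chosen after their values were seen. In an intron at 96743 bp, the peaks had percentiles of 63.9 and 63.2 in beige, 79.7 and 83.0 in white and 60.1 and 62.5 in brown, so that white was above both other cultures. In an intron at 64476 bp, percentiles were 63.8 and 59.3 in beige, 81.6 and 58.7 in white and 86.5 and 84.5 in brown, and brown was above both other cultures.

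Other Egfr elements ranked high everywhere. In the intron at 48509 bp, the peaks had percentiles of 94.1 and 87.7 in beige, 98.6 and 93.5 in white and 93.8 and 96.9 in brown, and cultures overlapped in each comparison. The region with the smallest q value of the window was the promoter of Fbxo48, a neighbouring gene, at 199019 bp, where percentiles were 96.2 and 97.6 in beige, 98.2 and 92.0 in white and 99.1 and 99.4 in brown. Egfr further had 4 regions that separated cultures by presence, all of modest rank. Region B, at 114535 bp, had peaks in beige (percentiles 26.7 and 23.6) and white libraries (39.4 and 39.2) and in neither brown library. It held AP-1, ETS and C/EBP matches. A white-only region at 41049 bp had a -log10 q of 4.76 and 2.59, a brown-only region at 105245 bp one of 3.78 and 3.07, and a region of white and brown at 193692 bp lay at 3.39 to 6.33.

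Cd34 encodes a surface sialomucin of progenitors and endothelial cells. The gene (ENSMUSG00000016494.9) lies on chromosome 1 at 194938819-194961279, on the + strand, with no other protein-coding gene in the window. The Cd34 promoter peak reached percentiles of 59.4 and 65.3 in the beige, 87.8 and 76.5 in the white and 68.3 and 63.0 in the brown libraries. Both white values were above both beige and both brown values. The means were 82.1 ± 8.00 in white, 62.3 ± 4.19 in beige and 65.7 ± 3.74 in brown (SD, n = 2), so that white differed by 19.8 points from beige and by 16.4 from brown. Beige and brown overlapped. Upstream of the gene at -8622 bp, the peaks had percentiles of 53.2 and 61.6 in beige, 71.2 and 78.0 in white and 59.7 and 19.2 in brown, again with white above beige and above brown.

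An intronic element of Cd34 at 12290 bp, printed above, set brown cultures apart. There, percentiles were 67.0 and 73.9 in beige, 70.5 and 72.1 in white and 30.7 and 27.1 in brown. Brown was below beige by -41.5 points (brown minus beige) and below white by -42.3 points, and beige and white overlapped. Its -log10 q was 13.1 and 18.7 in beige, 11.2 and 12.4 in white and 4.80 and 3.69 in brown. None of the consensus sequences was found in its 201 bp. The element was chosen after its values were seen. Downstream of the gene, at 37537 bp, lay the region of the smallest q value near Cd34, where the peaks had percentiles of 92.5 and 90.3 in beige, 96.0 and 96.4 in white and 94.7 and 94.8 in brown. It is rich in GC (71.6%) and lies 19 bp from the annotated start of A330023F24Rik, a non-coding RNA gene.

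Ly6a encodes Sca-1, the surface antigen by which progenitors of many mouse tissues are sorted. The gene (ENSMUSG00000075602.10) lies on chromosome 15 at 74994877-74998031, on the - strand. No library had a summit within 1 kb of any of its 5 start sites. The nearest summit was found 1057 to 1130 bp before the first start in all 6 libraries, just outside the limit. At this region, percentiles were 53.5 and 56.4 in beige, 51.7 and 34.4 in white and 64.6 and 66.0 in brown. Beige was above white and brown was above both, with means of 55.0 ± 2.03 in beige, 43.0 ± 12.3 in white and 65.3 ± 0.975 in brown (SD, n = 2). It held an NFI match. Its absence from the promoter count thus rests on the distance chosen, and with 1500 bp in place of 1 kb, a limit chosen after these values were seen, 9 of the 10 genes had a promoter peak in all libraries.

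Within Ly6a itself an intron was open in all libraries at 2457 bp, where the peaks had percentiles of 67.9 and 66.1 in beige, 84.3 and 75.8 in white and 62.0 and 81.7 in brown, and both white values were above both beige values. Further upstream at -21700 bp, percentiles were 87.5 and 97.4 in beige, 80.8 and 94.9 in white and 76.7 and 76.3 in brown, with brown below white and below beige. The window holds the related genes Ly6e, Ly6i and Ly6c1, and its region of smallest q value lay at 29628 bp, nearest to the start of Ly6e, where the peaks had percentiles of 92.9 and 92.5 in beige, 87.4 and 94.8 in white and 82.1 and 86.1 in brown. Of the 8 regions open in all libraries, brown ranked below beige in 5 and above it in 2, beside 27.3% and 24% of all regions, and 2 of the 5 were promoters of Ly6e.

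Dpp4 encodes a membrane peptidase and marks interstitial progenitors. The gene (ENSMUSG00000035000.8) lies on chromosome 2 at 62330073-62412231, on the - strand. The Dpp4 promoter peak reached percentiles of 75.8 and 80.3 in the beige, 82.0 and 88.0 in the white and 68.5 and 73.0 in the brown libraries. The cultures did not overlap in any comparison, with white highest, beige next and brown lowest. The means were 85.0 ± 4.29, 78.0 ± 3.15 and 70.7 ± 3.17 (SD, n = 2), and neighbours in this order differed by 6.94 and 7.30 points, while replicates differed by 4.46 to 6.07 points. The order was the same by -log10 q. The 32 regions of the window were less often shared than those of most members, with 6 open in all libraries (18.8%) and 12 in a single library. The region of smallest q value lay in an intron at 61789 bp, where percentiles were 81.3 and 79.9 in beige, 74.5 and 82.6 in white and 92.3 and 82.5 in brown. Past the end of the gene at 86644 bp, where it meets Slc4a10, the peaks had percentiles of 78.7 and 76.0 in beige, 65.8 and 42.8 in white and 79.1 and 77.8 in brown, with white below both other cultures.

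Pi16 encodes a peptidase inhibitor and marks fibroblasts and progenitors that resemble the Dpp4 group. The gene (ENSMUSG00000024011.17) lies on chromosome 17 at 29317680-29330593, on the + strand. Its promoter peak was the weakest of the members. The strongest promoter peak reached a percentile of 35.9 and 9.49 in beige, 12.9 and 31.2 in white and 40.1 in brown replicate 2, and brown replicate 1 had none. Its -log10 q was 8.29, 3.94, 5.27, 7.22 and 8.09 in the same order. Beige and white overlapped, and replicates differed by 26.4 points in beige and 18.4 in white. In brown replicate 1 the nearest summit lay 1522 bp from a start, with a -log10 q of 2.52. The 9 regions of this window open in all libraries belonged mostly to its neighbours, with the smallest q value at the promoter of BC004004 at -48769 bp, where percentiles were 95.1 and 90.0 in beige, 96.4 and 89.9 in white and 95.0 and 96.3 in brown.

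Cd55 encodes a complement-regulating surface protein. The gene (ENSMUSG00000026399.12) lies on chromosome 1 at 130439027-130462744, on the - strand. It had the fewest regions, 6 in its window or 4.85 per 100 kb, and the highest promoter rank. The Cd55 promoter peak reached percentiles of 89.3 and 92.1 in the beige, 97.9 and 96.0 in the white and 94.0 and 94.8 in the brown libraries. No pair of cultures overlapped by fold enrichment, while brown and beige overlapped by -log10 q. White was highest at 96.9 ± 1.28, brown next at 94.4 ± 0.581 and beige lowest at 90.7 ± 1.95 (SD, n = 2), all within 6.24 points. The only other region open in all libraries was upstream, at -23453 bp, where the peaks had percentiles of 95.0 and 92.6 in beige, 93.4 and 90.2 in white and 95.4 and 94.5 in brown. It held AP-1, TEAD and NFI matches.

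Icam1 encodes the ligand of leukocyte integrins and is induced by inflammatory signals in many cells. The gene (ENSMUSG00000037405.8) lies on chromosome 9 at 21015985-21028817, on the + strand. The Icam1 promoter peak reached percentiles of 49.4 and 51.0 in the beige, 25.3 and 24.9 in the white and 30.0 and 43.6 in the brown libraries. Both beige values were above both white values, with means of 50.2 ± 1.12 and 25.1 ± 0.251 (SD, n = 2), a difference of 25.1 points. Brown lay between at 36.8 ± 9.63, above white and below beige in both libraries. The peak at the start itself, at -28 bp, was absent from white replicate 1, whose strongest promoter peak lay at -566 bp. Promoter peaks at -551 and 807 bp were found in 5 libraries each, and the -log10 q of the strongest was 13.6 and 16.0 in beige, 6.88 and 7.04 in white and 7.83 and 8.73 in brown. By -log10 q, beige stayed above white, and brown and white overlapped.

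The Icam1 window is rich in genes, with 7 other protein-coding ones, and its region of smallest q value was the promoter of Fdx1l, where percentiles were 97.9 and 97.2 in beige, 96.4 and 90.3 in white and 98.0 and 96.7 in brown. The promoter of Icam4, a neighbouring adhesion gene, also ranked higher in beige than in white, where the peaks had percentiles of 61.6 and 60.7 in beige, 56.4 and 46.4 in white and 29.9 and 59.1 in brown. Among the 8 regions open in all libraries, 3 ranked higher in beige than in white and none lower, where 25.8% of all regions were higher and 22.1% lower, so that 3 of 8 is little above the background.

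Fstl1 encodes a secreted follistatin-like glycoprotein of stromal cells. The gene (ENSMUSG00000022816.11) lies on chromosome 16 at 37776873-37836514, on the + strand. The Fstl1 promoter peak reached percentiles of 66.0 and 50.03 in the beige, 66.4 and 63.5 in the white and 53.7 and 63.5 in the brown libraries. By fold enrichment all cultures overlapped. The beige replicates differed by 15.9 points, more than those of 94.1% of genes. By -log10 q, brown was below white, with mean percentiles of 68.1 and 74.0, and beige overlapped with both. With the start sites of all transcripts, brown minus white by fold was 4.68 points in place of -6.30. The window of Fstl1 held 33 regions or 20.7 per 100 kb, more than 91.9% of genes. The smallest q value was found in an intron at 37978 bp, printed above with its AP-1 and NF-κB matches, where percentiles were 81.1 and 80.5 in beige, 89.8 and 82.0 in white and 88.5 and 92.7 in brown. White was above beige there, and brown was above beige.

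Distal elements of Fstl1 were apart by fold enrichment between cultures where its promoter was not. Outside promoters, 11 regions of its window were open in all libraries. White ranked above beige in 6 of them and below it in 1, where 22.1% of all regions were above and 25.8% below. Brown ranked above beige in 5 and below it in 1, beside 24% and 27.3% of all regions. At 1448 bp in the first intron, the peaks had percentiles of 69.5 and 58.6 in beige, 55.9 and 8.84 in white and 57.2 and 61.5 in brown, with white below beige and brown, and a wide gap between the white libraries. At -36497 bp, percentiles were 47.9 and 59.1 in beige, 48.3 and 42.1 in white and 23.7 and 16.6 in brown, and brown was below both other cultures. These were chosen after their values were seen. A region at 41313 bp had weak peaks in beige and brown and none in white, at percentiles of 7.50 and 2.14 in beige and 1.03 and 7.68 in brown. A brown-only region at 79574 bp, inside Gm36028, had percentiles of 26.4 and 59.1 and a -log10 q of 6.55 and 13.7.

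Over the 10 windows together, as among all regions, presence rarely separated the cultures. Of the 241 regions, 80 (33.2%) were open in all 6 libraries, near the background of 30.2%, and 67 (27.8%) were found in 1 library alone, beside 37.2% of all regions. Only 9 had peaks in both libraries of 1 culture or of a pair of cultures and in no other library. These were 1 beige-only region (background 1.94%), 2 white-only (1.23%), 2 brown-only (0.877%), 1 of beige and white (1.16%), 2 of beige and brown (1.25%) and 1 of white and brown (0.243%). For comparison, 1 region is 0.415% of the 241 and 2 regions are 0.830%. The 9 regions lay at Pdgfra, Egfr and Fstl1. With any 1 library left out, where fewer libraries have to lack a peak, 28 to 41 regions met this rule. The number of peaks near the 10 genes was 167 and 173 in beige, 178 and 172 in white and 166 and 153 in brown. Among the 29 regions found in exactly 5 libraries, each white library was missing from 8 and brown replicate 2 from 7, while the other 3 libraries were missing from 2 each. The genes lay in dense neighbourhoods, with a median of 17.4 regions per 100 kb beside 11.5 for all protein-coding genes.

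**Figure D3:**
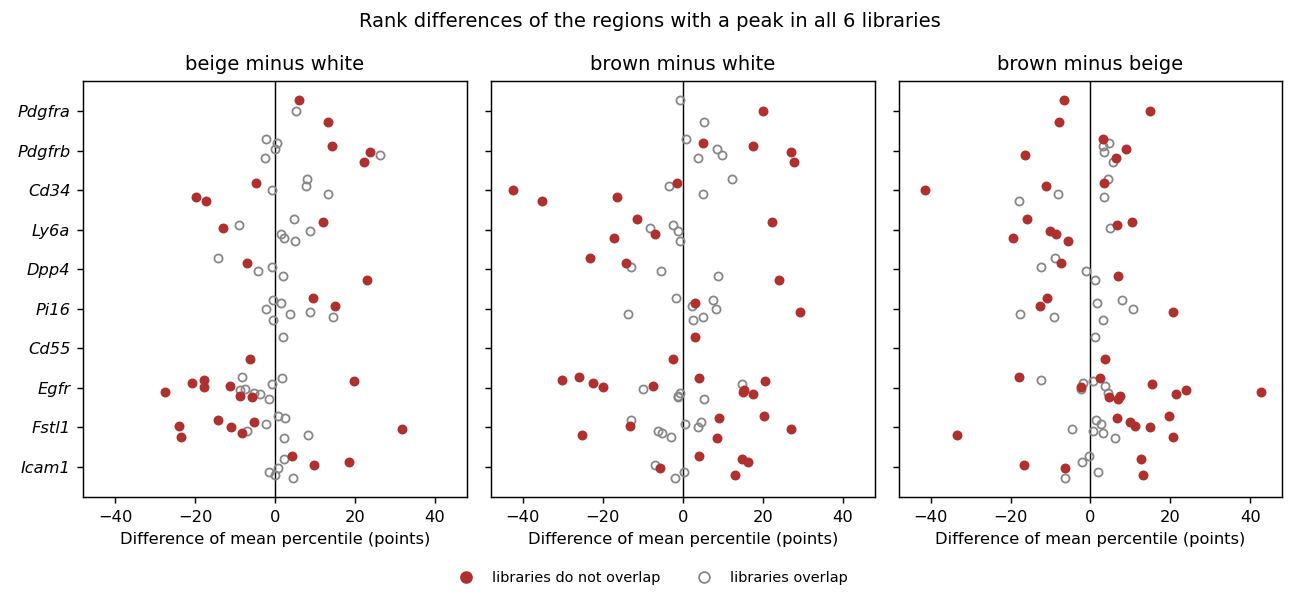
Difference of the mean percentile between cultures (x axis, percentile points) for the 80 regions with a peak in all 6 libraries, by the gene whose window holds them (y axis). Filled red points are regions where the libraries of both cultures do not overlap, open grey points are those that overlap. In beige minus white, Pdgfra, Pdgfrb, Pi16 and Icam1 have filled points at positive values only and Cd34 and Cd55 at negative values only, and most filled points of Egfr and Fstl1 are negative.

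Rank differences of shared regions went in both directions. Between beige and white, 14 of the 80 regions (17.5%) were higher in beige, beside 25.8% of all regions, and 19 (23.75%) were higher in white, beside 22.1%. Between brown and white, 23 (28.75%) were higher in brown, beside 22.7% of all regions, and 18 (22.5%) were higher in white, beside 23.9%. Between brown and beige, 26 (32.5%) were higher in brown, beside 24% of all regions, and 18 (22.5%) were higher in beige, beside 27.3%. Differences of more than 20 points in the mean were found in 9, 17 and 7 of the 80 regions. The share of all regions with such differences was not computed, so these counts have no background to be read against. The regions higher in white lay mainly in the windows of Egfr (7), Fstl1 (6) and Cd34 (3). Regions higher in beige were spread over the windows of Pdgfrb and Icam1 (3 each), Pdgfra and Pi16 (2 each) and 4 other genes. In the windows of Icam1 and Pi16, every region open in all libraries lay nearest to the start of another gene, with genes of all types counted.

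Promoters of other progenitor genes were mostly open as well. All 8 genes of the interstitial progenitor list, which includes Wnt2, Bmp7, Sema3c and Cd44, had a promoter peak in all 6 libraries. White was above beige at 3 of the 8 (Sema3c, Cd44 and Dact2), beside 19.9% of all genes, beige was above white at Bmp7 alone, beside 28.5%, and 4 genes overlapped. At Dact2 the closest values were 35.2 in beige replicate 2 and 35.6 in white replicate 2. Sema3c, a secreted guidance factor, had percentiles of 87.0 and 86.5 in beige, 98.7 and 98.3 in white and 97.4 and 96.9 in brown. Bmp7, a growth factor of the BMP family, had 68.6 and 74.5 in beige, 52.5 and 56.2 in white and 65.5 and 45.3 in brown. Sema3c, Bmp7 and Dact2 were chosen after their values were seen. Of 8 preadipocyte genes, 7 had a promoter peak in all libraries. The exception was Thy1, a surface glycoprotein of fibroblasts, with peaks in both beige libraries at 33.3 and 40.3, in neither white library, and in brown replicate 1 at 7.29. Presence in both beige and neither white library was found for 0.531% of all genes. In the list of progenitors marked by CD142, 5 of 6 genes had a promoter peak in all libraries, and Clec11a had none. White was above beige at 1 of 7 preadipocyte and 1 of 5 CD142 genes, and beige above white at 0 and 1. For endothelial genes these counts were 4 and 1 of 5, for adipocyte genes 2 and 1 of 9 and for mural genes 2 and 3 of 8. They were 2 and 3 of 11 for ligands and partners, 1 and 0 of 2 for macrophage and 1 and 1 of 2 for mesothelial genes. Ranks higher in white were thus not particular to progenitor genes.

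Of 14 genes for ligands and partners of the receptors above, 11 had a promoter peak in all 6 libraries. Pdgfb, the main ligand of the Pdgfrb receptor, had weak promoter peaks at percentiles of 8.59 and 25.3 in the white libraries and none in beige or brown, a pattern of presence found for 0.407% of genes against beige and 0.545% against brown. Pdgfa, Pdgfc and Pdgfd were open in all libraries, and so were Egf, Tgfa, Areg, Hbegf, Btc and Ereg. The median of the mean promoter percentile was taken over the genes of each list with a promoter peak in all 6 libraries. It was 71.4 for interstitial progenitor genes, 62.0 for preadipocyte genes and 67.7 for the CD142 list. Endothelial genes reached 75.4 and ligands and partners 75.2, above the 68.6 of the 8 progenitor markers given above. Adipocyte genes had 61.0, mural genes 49.4, mesothelial genes 39.9 and macrophage genes 26.9, beside 88.2 for all such genes.

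**Figure D4:**
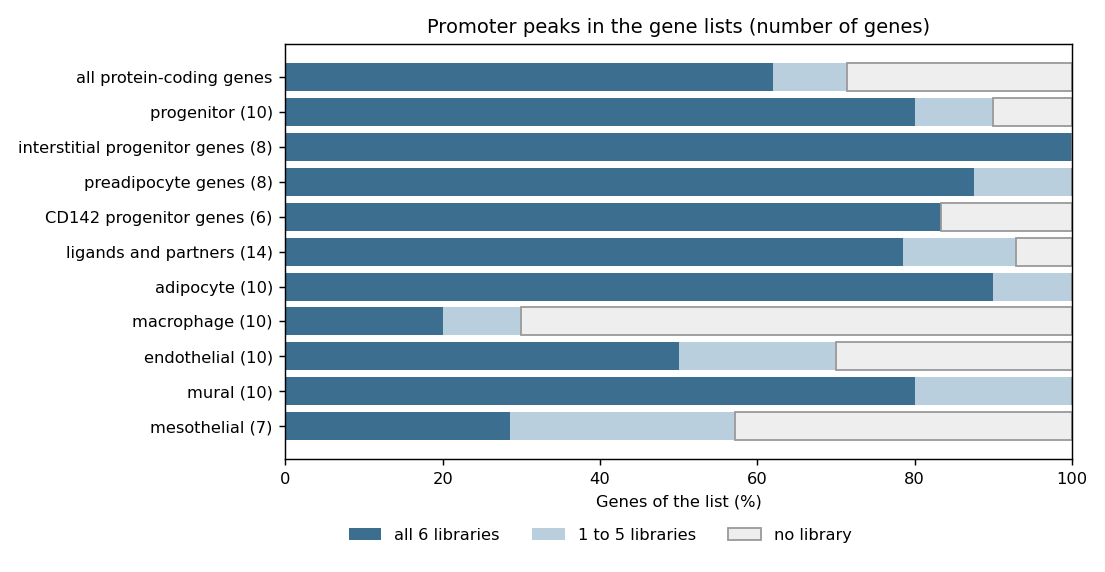
Percentage of the genes of each list (x axis) with a promoter peak in all 6 libraries, in 1 to 5 libraries or in none, with the number of genes in parentheses and all protein-coding genes at the top. The progenitor, ligand, adipocyte and mural lists lie above the share of all genes (62%), and the macrophage, endothelial and mesothelial lists lie below it.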

How the data were processed

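Open chromatin was measured by ATAC-seq in 6 libraries, with 2 per culture (beige, white, brown), and 1 peak list of each was used. The authors trimmed adaptors with Trimmomatic, aligned reads to mm10 with BWA and called peaks per library with MACS2 at a q value under 0.05. The methods of the paper describe the beige and white libraries, and the processing of the brown ones is known from the labels alone. Per peak, the deposited fold enrichment gives the summit's pileup as a ratio to local background within the library, and the deposited -log10 p-value and -log10 q-value are those of the summit. These values do not state the depth of a library and were not adjusted for it, the -log10 q included. The study states read totals for the beige and white libraries alone, and none were used.

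Where an interval was listed with several summits, only the one of highest -log10 q was kept. Percentiles, merged regions (overlap of at least 1 bp) and promoter peaks were computed with Python 3.11.15, numpy 2.4.6 and pandas 2.3.3, and figures were drawn with matplotlib 3.10.9. Start sites were those of GENCODE M21 basic, and sequences came from RefSeq and GRCm38.p6, which shares its chromosome coordinates with mm10. Grouping followed the sample labels. The steps were tested on simulated lists with known classes. No test between groups was made.

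The members, the marker lists and the motifs were chosen with earlier results of these data known. Named regions were, for each gene, the one with the highest -log10 q in each class open in 1 culture or a pair of cultures and the strongest open in all 6 libraries. Named genes of other lists were those with a promoter peak in both libraries of 1 culture and in neither of another. Regions and genes named beyond this rule were chosen after their values were seen. Alternatives covered the q threshold, list length, window, start sites, promoter distance, ranking measure, summit distance and each library left out.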

Additional observations from a re-analysis of the deposited data

How the results depend on the processing

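No paired analysis was possible because replicates of different cultures share only a number and no comparison rests on a fitted test. The 8 genes with a promoter peak in all libraries became 7 to 9 under the alternatives. Counts of genes whose promoter ranks were apart stayed within 1.5 times of those reported, except between brown and beige. There the 5 genes became 2 when ranked by -log10 q and 8 without beige replicate 2. Ranked by -log10 q, Egfr, brown minus beige, turned to -0.669 points. With 1500 bp as the promoter distance, a limit chosen after the data were seen, 9 genes had a promoter peak in all libraries. The window sets the number of regions. With 20 kb to each side, 53 regions were open in all libraries and the mean was 110.0 peaks per library. With 100 kb, these were 127 and 261.2, with 19 regions of one culture or a pair. Regions whose nearest start site is that of the member itself numbered 44 open in all libraries and 5 of one culture or a pair, with a mean of 97.3 peaks. With each library left out in turn, 8 to 9 genes had a promoter peak in all libraries. Genes apart numbered 6 to 8 between beige and white, 6 to 8 between brown and white and 5 to 8 between brown and beige. Leaving out a library cannot lower these counts of genes, because fewer values have to be present or apart. These ranges are therefore no measure of stability. Regions open in all remaining libraries numbered 82 to 88 and regions of one culture or a pair 28 to 41, under rules that fewer libraries had to meet. The mean was 166.2 to 171.2 peaks. Of 296 recomputed promoter differences of single genes, 279 moved by less than 1 SD of replicates, 16 moved by more in the same direction or without having been apart, and 1 reversed. The 296 include the differences with a library left out. Leaving out 1 of 2 replicates shifts a mean by no more than this SD, by construction. The 279 are therefore no measure of stability. Depth was not used, so a peak missing from a list may lie just under its threshold.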
